A study of Mus musculus with 4 samples.

Results

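The genes described here are 9 genes that mark microglia, the resident macrophages of neural tissue, in their resting or homeostatic state: Cx3cr1, P2ry12, Csf1r, Sall1, Slco2b1, Tmem119, Siglech, Gpr34 and Trem2. They were taken by symbol from a table of 22690 genes, and all 9 were found. The set was selected on values of this same table, namely lower read counts in GFP-positive than in GFP-negative cells, so that contrast is given for them as a description with no test. RNA came from retinal cells of C57BL/6 mice at postnatal day 2, collected by flow cytometry as cells with 4N DNA, in 2 libraries of GFP-negative cells (wild type by label) and 2 of GFP-positive cells (Casz1 cKO by label), cKO being a conditional knockout of the zinc finger factor Casz1. All of these cells had stood in serum-free medium for a short time after dissection. The sorted fraction and the genotype change together between the groups and cannot be told apart. What drives the GFP or the deletion, in which cells, and how many animals each library holds are not given by the sources at hand. One tag in the column names, written A, is shared by a wild-type and a cKO library, and a further tag, written B, by the others; no label ties a tag to an experiment.

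Microglia come from yolk sac progenitors and not from the neural retina, and they settle in the retina before birth. Csf1r, the receptor for the growth factors Csf1 and Il34, keeps them alive; Cx3cr1 receives fractalkine (Cx3cl1) from neurons; P2ry12 senses extracellular nucleotides and guides their processes; Trem2 senses lipids and signals through the adaptor Tyrobp. Transforming growth factor beta holds the homeostatic programme in place, and Sall1 is one of the transcription factors that maintain it.

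The libraries differed in depth and in noise. Reads in genes numbered 75832360 to 89473701 in 3 libraries and 22326119 in cKO library A. Across genes, cKO library A reached Pearson correlations of only 0.902 to 0.918 with the others, which had 0.988 to 0.993 with each other. One read is worth a normalized count of 2.79 in cKO library A and of 0.661 to 0.759 in the others, so 3 reads, taken as the floor, are worth 8.38 there and 1.98 to 2.28 elsewhere. Intervals given below are exact 95% intervals for counting error only. For Casz1, wild type A and B had normalized read counts of 13162 and 11995, and cKO A and B had 8687 and 10772; reads over the whole gene do not measure the deletion. The labelled tissue was checked on 10 retinal progenitor genes, of which Pax6, a paired-box factor of these cells, had 48629 and 61512 in wild type and 35093 and 69539 in cKO. Nothing in the labels says that the libraries of a group came from separate animals, so their spread may be technical.

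Start-site sequence is shown for 5 members, as these genes were lower together and the factor PU.1 (Spi1) is known to act at microglial promoters. RefSeq windows on GRCm38.p6, from 250 bases before to 50 after a start, matched 6 of the 9 members with 10 windows. The PU.1-type ETS core GAGGAA, read on both strands, was in 9289 of 32851 windows of all genes (28.3%) and in 5 of the 10 windows of members, in the 3 genes Siglech, Slco2b1 and Trem2. Slco2b1 and Sall1 have several windows each, for alternative starts, and windows of the same gene are not independent. The core was in every window of Slco2b1 and in no window of Sall1. The AP-1 letters TGANTCA were in 7.81% of all windows and in 2 of the 10, and the TATA box letters TATAAA were in 13.6% and in 0. In Slco2b1 the AP-1 letters follow the ETS core without overlap. The lines below run 5′ to 3′ on the gene's strand, with capitals for these motifs in the upstream stretches and for the ETS core alone in the short sites (in Siglech and Trem2 it reads TTCCTC, its reverse complement). Those of Trem2 (chr17:48346151-48346400, plus strand), P2ry12 (chr3:59262986-59263235, minus strand) and Cx3cr1 (chr9:120068297-120068546, minus strand) are the 250 bases before the start. Those of Siglech (chr7:55768168-55768197, plus strand) and Slco2b1 (chr7:99711317-99711346, minus strand) are 30 bases around the ETS core, which begins at position -4 and 7 from the start. The letters describe these windows only, and no binding was measured.
Trem2: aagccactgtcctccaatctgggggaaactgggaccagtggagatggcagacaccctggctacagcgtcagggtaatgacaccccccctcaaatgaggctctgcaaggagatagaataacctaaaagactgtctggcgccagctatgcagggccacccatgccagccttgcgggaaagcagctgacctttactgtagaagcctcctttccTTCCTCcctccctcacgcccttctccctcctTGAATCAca
P2ry12: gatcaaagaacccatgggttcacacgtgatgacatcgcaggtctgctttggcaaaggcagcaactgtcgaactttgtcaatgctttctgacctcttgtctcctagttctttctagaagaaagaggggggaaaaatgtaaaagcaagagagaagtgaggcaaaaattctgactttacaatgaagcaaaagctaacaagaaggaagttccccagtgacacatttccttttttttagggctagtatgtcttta
Cx3cr1: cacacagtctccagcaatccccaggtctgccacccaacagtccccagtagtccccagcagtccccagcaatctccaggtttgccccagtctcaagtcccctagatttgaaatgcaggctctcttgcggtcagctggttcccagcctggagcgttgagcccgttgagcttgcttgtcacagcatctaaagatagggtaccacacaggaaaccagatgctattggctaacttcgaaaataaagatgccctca
Siglech: tgctgtccctagTTCCTCttctgtgagctg
Slco2b1: cagtccatgaggGAGGAAgtgactcatctt

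All 9 genes were lower in both GFP-positive cKO libraries than in both GFP-negative wild-type libraries. Summed over the 9, wild type A and B held normalized counts of 12120 and 9718 (15964 and 14079 reads), cKO A held 813 (291 reads) and cKO B held 4400.4 (6656 reads), so the sum in cKO was 6.71% of wild type at tag A and 45.3% at tag B. The difference thus had 1 direction at both tags and was far larger at A. Groups that do not overlap in this direction were found for 3227 of the 14480 tested genes (22.3%), and the 9 members were selected on this contrast, so their count carries no weight. In a sorted bulk library, fewer microglia and less of each RNA per microglial cell cannot be told apart.

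**Figure D1:**
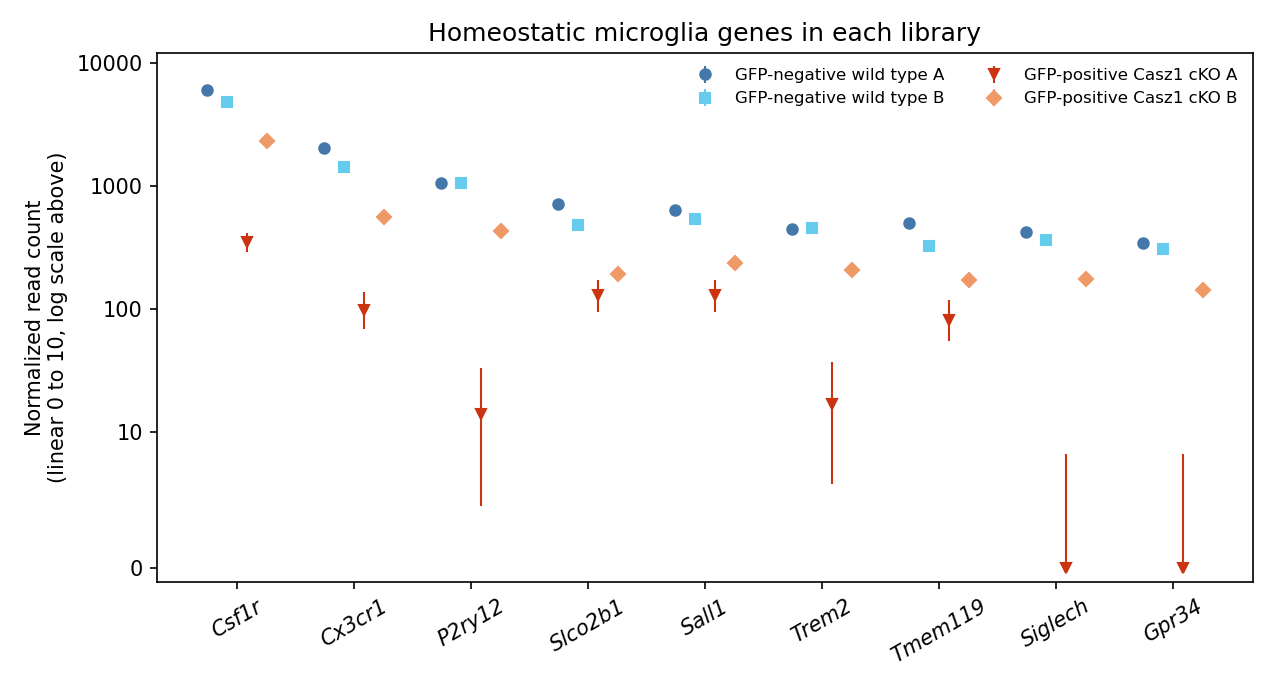
Normalized read counts of the 9 genes (vertical axis, linear from 0 to 10 and logarithmic above) in each of the 4 libraries, with exact 95% counting intervals, or the floor of 3 reads where the count is 0. In every gene both cKO libraries lie below both wild-type libraries, and cKO library A is the lowest, at 0 for Siglech and Gpr34.

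Among the receptors for protein ligands, Csf1r was the most abundant member. Csf1r (ENSMUSG00000024621, chromosome 18, 61100598 to 61132149 on build GRCm38, plus strand) stood at normalized read counts of 6021 and 4788 in wild type A and B, 346 in cKO A (124 reads) and 2293 in cKO B. Wild type averaged 5405 ± 872 (SD, n = 2) and cKO 1320 ± 1376 (SD, n = 2), where the SD in cKO exceeds its mean because its libraries differ so widely. At tag A cKO stood at 5.75% of wild type (4.78 to 6.87) and at tag B at 47.9% (46.0 to 49.9). Cx3cr1 (ENSMUSG00000052336, chromosome 9, 119901616 to 120069879, minus strand) had 2011 and 1432 in wild type A and B, 97.8 in cKO A (35 reads) and 558 in cKO B. Its cKO level was 4.86% of wild type at tag A (3.38 to 6.78) and 39.0% at tag B (35.9 to 42.2), close to Csf1r at A and below it at B. The annotated span of Cx3cr1 is long, holds 4 merged exon blocks of 4505 bases in all, and runs over other genes that share no exon base with it except Gm33858, named below. Trem2 (ENSMUSG00000023992, chromosome 17, 48346401 to 48354147, plus strand) had 441 and 452 in wild type A and B, 16.8 in cKO A (6 reads) and 205 in cKO B. That is 3.80% of wild type at tag A (1.39 to 8.32) and 45.3% at tag B (39.5 to 52.0). The wild-type libraries differed little for Trem2, with a mean of 447 ± 7.78 (SD, n = 2), while cKO had 111 ± 133 (SD, n = 2).

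The purine-type receptors and the sialic acid receptor were the members with the fewest reads in cKO library A. P2ry12 (ENSMUSG00000036353, chromosome 3, 59216272 to 59262871, minus strand) had 1042 and 1048 in wild type A and B, 13.97 in cKO A (5 reads) and 430.4 in cKO B. Its wild-type mean was 1045 ± 4.82 (SD, n = 2) and its cKO mean 222 ± 294 (SD, n = 2), with 1.34% of wild type at tag A (0.435 to 3.14) and 41.0% at tag B (37.4 to 45.0). Gpr34 (ENSMUSG00000040229, chromosome X, 13632089 to 13640858, plus strand), a lysophosphatidylserine receptor related to the P2Y family, had 343 and 304 in wild type A and B, 0 in cKO A and 142 in cKO B (215 reads). Siglech (ENSMUSG00000051504, chromosome 7, 55768178 to 55778925, plus strand), a sialic acid binding lectin, had 417 and 364 in wild type A and B, 0 in cKO A and 175 in cKO B (265 reads). Against the floor of 3 reads in that library, Siglech was at least 49.7-fold lower and Gpr34 at least 40.9-fold lower in cKO A than in wild type A. At tag B neither stood out, with Siglech at 48.1% (41.3 to 55.8) and Gpr34 at 46.7% (39.5 to 55.1) of wild type. Of the 7996 tested genes whose wild-type mean lies in the range of the members (324 to 5405), 30 (0.375%) were at 0 in cKO A.

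Tmem119, Slco2b1 and Sall1 kept more of their wild-type level in cKO library A than the other 6 members. Tmem119 (ENSMUSG00000054675, chromosome 5, 113793729 to 113800516, minus strand), a membrane protein that within the brain marks microglia, had 501 and 322 in wild type A and B, 81.0 in cKO A (29 reads) and 171 in cKO B. Slco2b1 (ENSMUSG00000030737, chromosome 7, 99657804 to 99711340, minus strand), an organic anion transporter, had 707 and 476 in wild type A and B, 129 in cKO A (46 reads) and 191 in cKO B. Sall1 (ENSMUSG00000031665, chromosome 8, 89027235 to 89044162, minus strand), a zinc finger transcription factor, had 637 and 531 in wild type A and B, 129 in cKO A (46 reads) and 235 in cKO B. These values are 16.2% (10.7 to 23.4), 18.2% (13.2 to 24.5) and 20.2% (14.7 to 27.2) of wild type at tag A for Tmem119, Slco2b1 and Sall1. The lowest of these bounds, 10.7%, lies above the highest upper bound of the other 6, which is 8.32% for Trem2. This split of the members was made after the values were seen. The bounds hold counting error only and not the spread between libraries, so they do not test the split. At tag B Tmem119, Slco2b1 and Sall1 were at 53.0% (45.4 to 61.9), 40.1% (34.8 to 46.1) and 44.3% (39.0 to 50.3). Their intervals there overlapped those of the other 6, except that Tmem119 lay above P2ry12 and Cx3cr1. The group means were 411 ± 127 and 126 ± 63.3 for Tmem119, 592 ± 163 and 159.8 ± 44.2 for Slco2b1 and 584 ± 75.1 and 182 ± 75.5 for Sall1 (wild type and cKO, SD, n = 2).

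**Figure D2:**
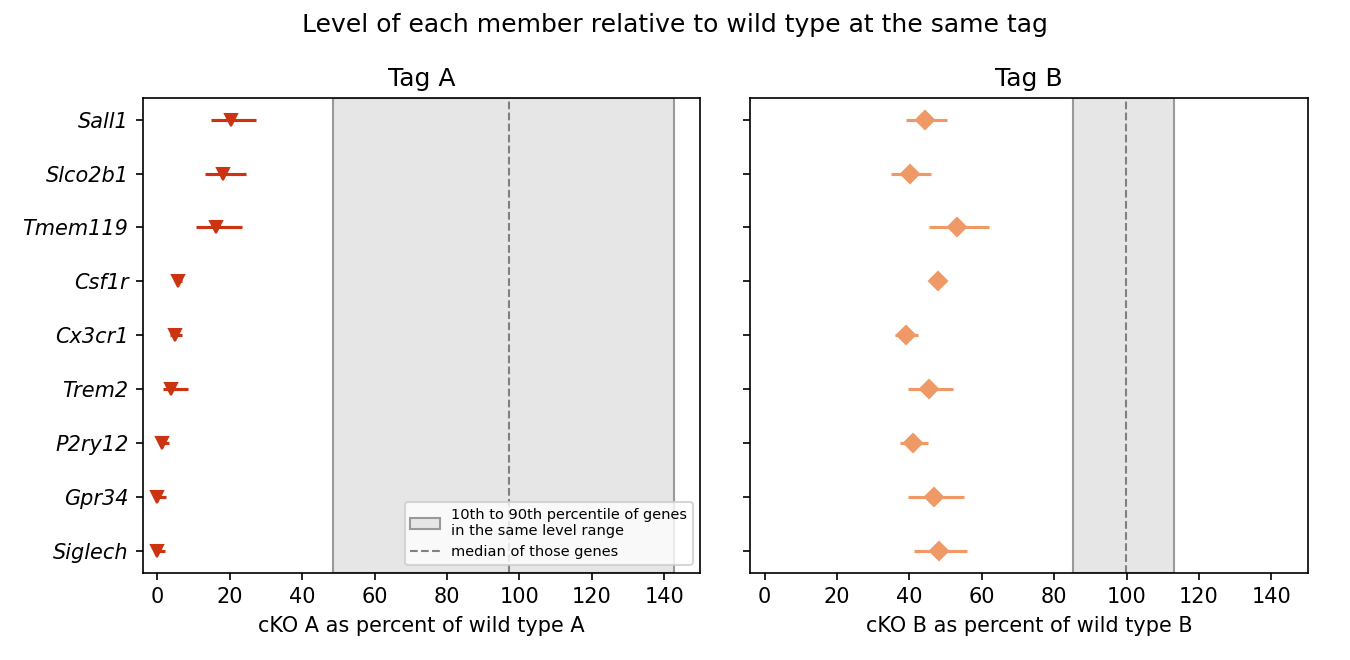
Level of each member in cKO as a percent of wild type (horizontal axes) at tag A (left) and tag B (right), with 95% counting intervals or, at 0, the floor of 3 reads. Grey bands span the 10th to 90th percentile of the 7996 tested genes in the members' level range, 48.6 to 142.7% at A and 85.2 to 113.1% at B; members spread from 0 to 20.2% at A and from 39.0 to 53.0% at B.

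The spread among members differed between the tags. At tag B the 9 members lay within 39.0 to 53.0% of wild type, with a median of 45.3%, and 78 of the 7996 genes in their level range (0.975%) were at 55% or less. At tag A they lay between 0 and 20.2%, with a median of 4.86%, and 214 of those genes (2.68%) were at 25% or less. Both limits were met by 65 genes of that range (0.813%), the 9 members among them. The limits were set after the members' values were seen. The libraries at tag A also varied more for other genes: the 10th to 90th percentile of cKO as a percent of wild type was 48.6 to 142.7% at tag A and 85.2 to 113.1% at tag B, with medians of 97.2 and 99.8%. The part of this spread in the split of the members at tag A was not tested.

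The make-up of the microglia sum was alike in 3 libraries and differed in cKO library A. Csf1r gave 49.7 and 49.3% of the summed normalized count in wild type A and B, 52.1% in cKO B and 42.6% in cKO A. Tmem119, Slco2b1 and Sall1 together gave 15.2, 13.7 and 13.6% in wild type A, wild type B and cKO B, against 41.6% in cKO A. P2ry12, Siglech, Gpr34 and Trem2 together gave 18.5, 22.3 and 21.6% in the same 3 libraries, against 3.78% in cKO A. These sets of 3 and 4 genes were formed after the values were seen, and in cKO A they rest on 121 and 11 reads of 291. Between the wild-type libraries, the level in A was 0.976 to 1.56 times that in B, lowest for Trem2 and highest for Tmem119.

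**Figure D3:**
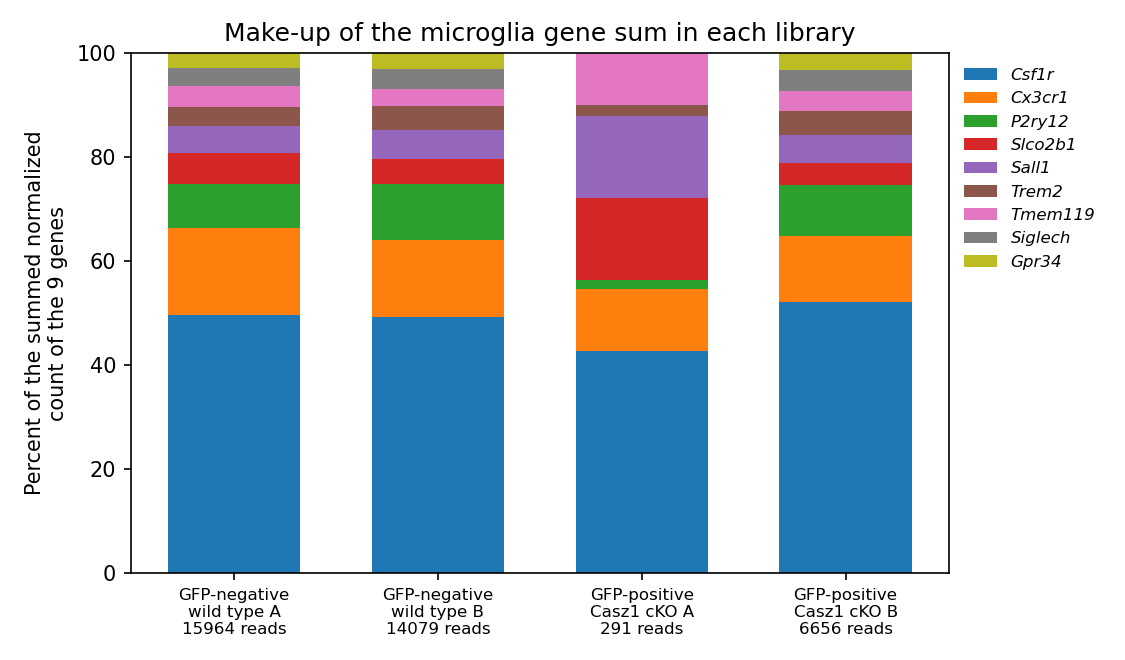
Share of each gene in the summed normalized count of the 9 genes (vertical axis, percent) in each library, with the number of reads behind each bar. The bars of both wild-type libraries and cKO library B look alike, and in cKO library A (291 reads) Tmem119, Slco2b1 and Sall1 take 41.6%.

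Per length, Csf1r led the members in every library. Levels here are normalized counts per kilobase of annotated exon. In the wild-type mean Csf1r had 936 per kilobase, P2ry12 410.5, Cx3cr1 382, Tmem119 178, Gpr34 155, Siglech 115, Sall1 111, Slco2b1 99.3 and Trem2 90.3. Cx3cr1 lay above Tmem119, and Gpr34 above Siglech, in both wild-type libraries. P2ry12 and Cx3cr1 overlapped over the wild-type libraries, as did Tmem119 and Gpr34. Among Siglech, Sall1, Slco2b1 and Trem2, genes next to each other in this order overlapped.

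Neighbouring genes show which of these counts could hold reads of another gene, since no source at hand says whether counting used strand. Gpr34 lies inside Cask on the opposite strand and shares no exon base with it; Cask, a scaffold kinase, had 5793 and 5639 in wild type and 5485 and 5950.0 in cKO A and B. Cask was thus level where Gpr34 was at 0. P2ry12 lies inside Med12l on the opposite strand and shares 9 exon bases with it, and Med12l, a Mediator subunit, had 3204 and 4382 in wild type and 1294 and 3558 in cKO. Csf1r shares 873 exon bases with Hmgxb3 on the opposite strand, which had 3259 and 2414 in wild type and 3115 and 2512 in cKO. The 124 reads of Csf1r in cKO A are therefore uncertain. Part of them could be of Hmgxb3 if reads in shared exon bases were counted and not left out. Slco2b1 shares 471 and 78 exon bases with the antisense genes Gm15635 and Gm34280, and Cx3cr1 shares 78 with Gm33858. Sall1, Tmem119, Siglech and Trem2 overlap no annotated gene.

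Tests across genes were made on log2(normalized count + 1) with limma over all 14480 genes averaging 10 or more, and called 0 genes (0.0%) at an adjusted p under 0.05, with 274 at an unadjusted p under 0.05. On recovered reads, 208 genes had an unadjusted p under 0.05 in edgeR and 0 an adjusted one, while DESeq2 gave 2 calls, Cldn1 and Nr2e3, neither of them a member. On the log2 scale, the median difference of the 9 members, cKO minus wild type, was -2.85, against -0.03 over all tested genes. Tag A alone gave -4.35 and tag B alone -1.14, where all tested genes had medians of -0.05 and -0.003. Single members ranged from -4.88 for Siglech to -1.74 for Sall1; the values of Siglech and Gpr34 (-4.76) rest on the 1 added to a count of 0. Leaving out cKO library A moved the median to -1.23, and limma then called 73 genes lower (0.502%), where the spread of the single cKO library is taken from wild type.

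Most other microglia genes were also lower in both cKO libraries. This list of 28 genes, like all lists here, was chosen with earlier results of these data known. Of its 28 tested genes 0 passed in limma, 26 were lower in both cKO libraries than in both wild-type libraries (22.3% of all tested genes were), and the median log2 difference was -2.42 (-3.76 at tag A, -1.11 at tag B). At 25% of wild type or less at tag A and 55% or less at tag B were 21 of the 28, against 353 of all 14480 tested genes, and Ptprc, Aif1, Cd33, P2ry13, Ltc4s and Cyth4 were at 0 in cKO A. Itgam, an integrin of the complement receptor, had 866 and 589 in wild type and 5.59 and 217 in cKO; this gene was picked after its values were seen. The 3 genes of the list with the highest counts were Gpr56, Tgfbr1 and Lgmn. Gpr56, an adhesion receptor, stood at 155.8% of wild type at tag A and 109.0% at tag B. Tgfbr1, a receptor of transforming growth factor beta, stood at 141.2 and 102.7%, and Lgmn, a lysosomal protease, at 67.4 and 75.8%. Gpr56 and Tgfbr1, with wild-type means per kilobase of 2112 and 1697, lay above Csf1r, and are the 2 genes of the list that were not lower in both cKO libraries.

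Among genes for ligands and other signals that reach microglia, Csf1 and Tgfb1 were lower in both cKO libraries, while Cx3cl1 and Tgfb2 overlapped. Of 11 tested genes of this list 0 passed in limma, 4 were lower in both cKO libraries (22.3% of all tested genes were) and 1, Cd200, was higher in both (17.2% of all tested genes were), with a median log2 difference of -0.15. Csf1, a ligand of Csf1r, had 1862 and 2908 in wild type and 964 and 1634 in cKO, 51.8% and 56.2% of wild type at tags A and B. The groups did not overlap for Csf1. Relative to wild type, Csf1 stood above its receptor at both tags, as Csf1r was at 5.75% at tag A and 47.9% at tag B. Il34, the other ligand of Csf1r, had 2.28 in wild type A (3 reads) and 0 in the other libraries. Cx3cl1, the ligand of Cx3cr1, had 232 and 177 in wild type and 282 and 169 in cKO, so the groups overlapped for the ligand and not for the receptor. Tgfb2, the most abundant transforming growth factor beta gene here, had 8163 and 7334 in wild type and 10232 and 7741 in cKO. Tgfb1, of the same family, had 228 and 173 in wild type and 11.2 and 99.2 in cKO. Apoe, a lipid carrier and a ligand of Trem2, had 13168 and 10086 in wild type and 12981 and 8267 in cKO, and Pros1, a bridge to phagocytic receptors, was at 155.4 and 96.2% of wild type at tags A and B.

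Among adaptors, Tyrobp was lower in both cKO libraries. Tyrobp, the adaptor of Trem2, had 552 and 677 in wild type and 72.6 and 279.7 in cKO, or 13.2% and 41.3% of wild type at tags A and B. Hcst, another adaptor of this type, had 3.04 and 8.97 in wild type and 0 and 2.64 in cKO, near the floors. Of 11 tested adaptor and signalling genes 0 passed in limma, 8 were lower in both cKO libraries and 1, Grb2, was higher in both, against 22.3 and 17.2% of all tested genes, with a median log2 difference of -2.09 (-1.05 without cKO library A). The 3 most abundant were Gnai2, a G protein subunit, at 155.1 and 101.5% of wild type at tags A and B, Pik3r1, a kinase subunit, at 72.9 and 94.1%, and Grb2, a linker protein, at 116.3 and 108.4%. Of 12 tested transcription factor genes 0 passed in limma, 8 were lower and 1, Smad3, was higher in both cKO libraries, beside the same 22.3 and 17.2% of all genes, with a median of -0.83, which became -0.29 on leaving out cKO A and -1.35 on leaving out cKO B. The 3 most abundant were Etv5 at 141.4 and 99.0%, Mef2a at 73.2 and 89.1% and Smad3, a mediator of transforming growth factor beta, at 127.2 and 107.1%. The table lists PU.1 under the older symbol Sfpi1, with 179 and 206 in wild type, 0 in cKO A and 77.4 in cKO B. Irf8, its partner in myeloid cells, had 291 and 269 in wild type, 0 in cKO A and 148 in cKO B; both factors were picked after their values were seen.

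Paralogues of the members ranged from 0 to 158.6% of wild type at tag A. Of 16 tested paralogues 0 passed in limma, 9 were lower in both cKO libraries (22.3% of all tested genes) and 1, Pdgfrb, was higher in both (17.2% of all tested genes), with a median log2 difference of -0.43. P2ry13, Cd33 and Treml2 were at 0 in cKO A and at 43.4, 39.7 and 26.1% of wild type at tag B. Sall2 had 5086 and 4039 in wild type and 5736 and 4445 in cKO, and Sall3 had 946.0 and 946 in wild type and 637 and 719 in cKO. Sall1 was thus lower at both tags than Sall3 relative to wild type (67.3 and 76.0% for Sall3), while Sall2 groups overlapped. P2ry13, the closest relative of P2ry12 in this list, had 389 and 326 in wild type, 0 in cKO A and 141 in cKO B, and P2ry1 had 218 and 218 in wild type and 131 and 253 in cKO. Among receptor kinases related to Csf1r, Kit had 5850 and 4526 in wild type and 4904 and 4051 in cKO, Pdgfrb had 829 and 966 and then 992 and 998, and Pdgfra had 1021 and 654 and then 539 and 481. Slco5a1, the most abundant transporter of the Slco2b1 family here, was at 62.2 and 94.2% of wild type at tags A and B.

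**Figure D4:**
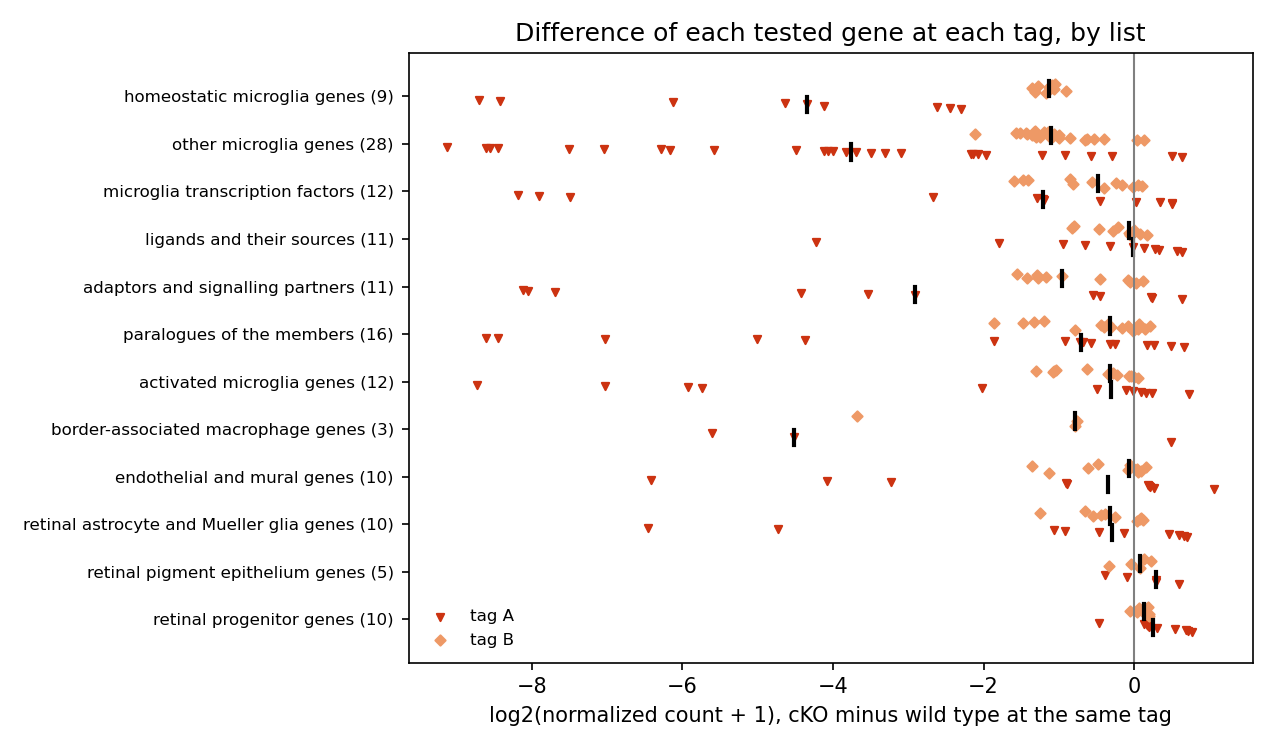
Difference of log2(normalized count + 1), cKO minus wild type at the same tag (horizontal axis), for each tested gene of each list (rows, number of genes in brackets), at tag A (triangles) and tag B (diamonds), with list medians as black bars. The homeostatic microglia genes have medians of -4.35 at A and -1.14 at B, and the retinal progenitor genes of 0.25 and 0.13.

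Markers of other cells that the gate could hold were examined beside the members. Of border-associated macrophage genes 3 of 12 were tested (median log2 difference -2.64, -0.79 when cKO A was left out, -4.49 when cKO B was, -1.63 in edgeR and -1.62 with no filter), 3 were at 0 in all libraries (Cd163, Cbr2 and Cd209f), and their summed count was 1061 and 1032 in wild type, 61.5 in cKO A and 578 in cKO B. Stab1, a scavenger receptor, made up most of that sum with 981 and 943 in wild type and 41.9 and 555 in cKO, and Mrc1, the mannose receptor, had 47.8 and 37.3 in wild type, 0 in cKO A and 1.98 in cKO B. Siglec1 had 13.7 and 26.9 in wild type and 19.6 and 15.2 in cKO. Of 16 genes of monocytes, granulocytes and lymphocytes 1 was tested, Lyz2, which had 266 and 247 in wild type and 33.5 and 153 in cKO; Ccr2 of monocytes, S100a8 of granulocytes and Cd3e of T cells had at most 10 reads in each library. Both sums were lower in cKO, as the members were, and their part in the result was not tested. Of 12 tested genes of activated microglia 0 passed in limma, with a median log2 difference of -0.31. In both cKO libraries 6 were lower and 1, Cd63, was higher, against 22.3 and 17.2% of all tested genes. Cd68, Itgax, Clec7a and Ccl6 were at 0 in cKO A and at 64.6, 47.0, 47.9 and 39.6% of wild type at tag B, and Spp1 was at 23.9 and 47.2% at tags A and B; these 5 were picked after their values were seen. At 25% or less at tag A and 55% or less at tag B were 4 of the 12, against 2.44% of all tested genes. The most abundant, Ctsd, Ctsb and Cd63, were at 92.6, 98.7 and 117.6% of wild type at tag A.

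Lists for vessels, pigment epithelium, glia and progenitors had median log2 differences between -0.35 and 0.16. None of these tested genes passed in limma, and the lowest adjusted p over all genes was 0.771. Endothelial and mural genes had a median log2 difference of -0.20 over 10 tested genes, of which 3 were at 0 in cKO A. In both cKO libraries 2 were lower and 2 higher, against 22.3 and 17.2% of all tested genes. The sum of the list, most of it Kdr, was 44628 and 39723 in wild type and 50575 and 40685 in cKO. Cldn5, a tight junction protein of endothelium, had 771 and 675 in wild type and 883 and 639 in cKO, and Pdgfrb is given above; Pecam1 had 84.3 and 59.4 in wild type, 0 in cKO A and 42.3 in cKO B. Pigment epithelium genes had a median of 0.06 over 5 tested genes, whose sign turned with no filter (-0.44), in DESeq2 (-0.03) and without wild-type library B (-0.13), with Rlbp1, Dct and Mitf the highest at 151.0, 76.4 and 93.9% of wild type at tag A, and Rpe65 had at most 5.52. Astrocyte and Mueller glia genes had a median of -0.35 over 10 tested genes, with Glul, Vim and Slc1a3 at 137.8, 158.8 and 162.9% at tag A and 106.9, 108.6 and 102.8% at tag B. Retinal progenitor genes had a median of 0.16, 0 of 10 passed in limma, 0 were lower and 5 were higher in both cKO libraries (17.2% of all tested genes were higher), among them Ccnd1, a cyclin, at 164.8 and 113.3% of wild type at tags A and B, while Pax6 was at 72.2 and 113.0%.

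The genes most like the members over the 4 libraries were sought by the distance between each gene's centred log2(normalized count + 1) values and the median centred values of the 9 members, among 12424 other genes whose mean was 50 or more. The closest 8 were Fcgr3 at a distance of 0.188, Tgfb1 at 0.251, Laptm5 at 0.255, Pld4 at 0.259, Nfatc1 at 0.278, Tgfbr2 at 0.295, Mpeg1 at 0.329 and C1qc at 0.336. The median distance over all candidates was 3.28 and the 1st percentile was 1.20. Fcgr3, an Fc receptor of myeloid cells, had 671 and 639 in wild type and stood at 5.83 and 38.9% of it at tags A and B. Laptm5, a lysosomal membrane protein of blood cells, had 2206 and 2326 in wild type and 136.9 and 920.3 in cKO. Mpeg1, perforin-2 of macrophages, had 2134 and 1732 in wild type and stood at 4.45 and 50.3% of it at tags A and B. Among the members, Csf1r at 0.056, Cx3cr1 at 0.323 and Trem2 at 0.657 were closest to the median, and Siglech at 4.03 and Gpr34 at 3.78 were farthest, since both are at 0 in cKO A. All of these distances rest on 4 libraries that the genes share.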

How the data were processed

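RNA-seq libraries of sorted 4N retinal cells were deposited as 1 table of normalized counts, a signal that the authors made from read counts and 1 scale per library, as the values show; they are normalized counts per the file headers. FastQC, TopHat, HTSeq, DESeq and the build mm10 are named per the submitters' processing notes, without versions, annotation or strand setting. Whole reads were recovered for 100% of values within 0.01 reads. Both cKO columns carry replicate number 2 in the header and were therefore mapped to their group only. The authors' own comparison columns were not used.

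Testing used log2(normalized count + 1) of genes averaging 10 or more, with limma 3.58.1 (trend, Benjamini-Hochberg over 14480 genes, threshold 0.05), a two-sided test, in R 4.3.3; edgeR 4.0.16 and DESeq2 1.42.0 on recovered reads were alternatives. The 1 added shrinks fold changes of low genes whose counts are above 0. Where a count is 0, it sets the size of the difference instead. Siglech and Gpr34, at 0 in cKO A, had -4.88 and -4.76 on this scale, against -2.06 and -2.09 in edgeR. The scripts were tested on simulated data. In a design of 2 against 2, differences in wild type and cKO rest on few degrees of freedom. Gene positions and exon lengths came from GENCODE M21 (GRCm38), in which 21798 of 22690 identifiers (96.1%) were found. Ratio intervals are conditional exact (Clopper-Pearson) with Python 3.11.15 and SciPy 1.17.1. The members and lists were chosen with earlier results of these data known. The genes named are the members, ligands and adaptors, paralogues of Sall1, P2ry12 and Csf1r, the 3 most abundant tested genes of each list, and the 8 closest in pattern; others are marked as picked after seeing values or are the defining markers and neighbours of a list or member. Some genes of the lists are not reported here by name.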

Additional observations from a re-analysis of the deposited data

How the results depend on the processing

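The 9 member differences stayed below 0 under all 90 combinations of member and alternative, from -8.61 to -1.12 on the log2 scale. The lowest is that of Siglech without cKO library B, where its size rests on the 1 added to a count of 0. The members were selected on the contrast of cKO with wild type, so the number of combinations below 0 carries no weight. As their groups do not overlap, other pseudocounts or left-out libraries could not turn the sign. The median of the 9 members, -2.85 with all libraries, was -2.00 in edgeR and -2.03 in DESeq2. On leaving out single libraries it lay between -4.10 (without cKO library B) and -1.23 (without cKO library A). Calls over all genes, 0 in limma, stayed at 0 with other pseudocounts, filters, median rescaling, no trend and edgeR, became 2 in DESeq2 and ranged from 0 to 5662 over left-out libraries (76 without cKO library A, 5662 without cKO library B); in the fixed lists they ranged from 0 to 74 (20 and 74). The cause was not tested. With the replicate block, taking the tags as shared numbers, limma called 0 genes (1375 at an unadjusted p under 0.05) and 0 in the fixed lists, and the members' median was -2.85; A minus B deviations correlated at 0.258 across genes between the groups. Rescaling libraries to a common median moved the median of all genes by 0.09. With the longest transcript as gene length, Siglech ranked 5 and Gpr34 6 in place of 6 and 5, and Slco2b1 7 and Sall1 8 in place of 8 and 7. With a mean of at least 50, the median of the astrocyte and Mueller glia genes was 0.04 in place of -0.35, and with no filter that of the activated microglia genes was -1.55 in place of -0.31. The median of the monocyte, granulocyte and lymphocyte genes, -1.82 from 1 tested gene, was -0.41 with no filter and -0.58 in DESeq2. Medians near 0 changed sign for the ligand genes (0.001 without wild-type library A, 0.07 without cKO library B) and for the endothelial and mural genes (0.09 with a mean of at least 50). Depth limits cKO library A most, where 5 members have 29 to 124 reads and 4 have 0 to 6.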

Other observations

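Of 10 astrocyte and Mueller glia genes 1 was at 25% of wild type or less at tag A and 55% or less at tag B. It is Pax2, picked after its values were seen. Pax2, a paired-box factor of astrocytes of the retina and optic nerve, had 322 and 184 in wild type A and B, 11.2 in cKO A (4 reads) and 76.7 in cKO B. That is 3.47% of wild type at tag A and 41.6% at tag B, within the range of the 9 microglia genes at both tags. Of the other astrocyte genes, Gfap, the intermediate filament of astrocytes, was at 72.4 and 68.1% and Pdgfra at 52.8 and 73.6% of wild type at tags A and B. S100b was at 0 in cKO A and at 62.7% of wild type at tag B.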
